A study of Homo sapiens with 12 samples.

Results

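The KRAB zinc finger genes of chromosome 19p12 were followed through the knockdown of chromatin regulators in NCCIT, a pluripotent human embryonal carcinoma cell line. The members were 36 genes named in a list, and 33 of them had a transcript cluster (the probes that an array reads as 1 transcript) annotated with that gene alone, among 18417 genes named in this way. ZNF66 had no cluster in the platform annotation, and ZNF98 and ZNF728 were listed only in clusters of several genes, so they were not analysed here. Where a gene had several clusters, the brightest stood for it. All 33 measured members lie on chromosome 19 in the RefSeq annotation, in the order ZNF101, ZNF14, ZNF506, ZNF253, ZNF93, ZNF682, ZNF90, ZNF486, ZNF737, ZNF626, ZNF85, ZNF430, ZNF714, ZNF431, ZNF708, ZNF738, ZNF493, ZNF429, ZNF100, ZNF43, ZNF208, ZNF257, ZNF676, ZNF729, ZNF492, ZNF99, ZNF730, ZNF724, ZNF91, ZNF675, ZNF681, ZNF726 and ZNF254. The band itself is not given in the reference tables used here.

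Expression was read on 12 Affymetrix Human Gene ST arrays, and each of the 6 conditions had 2 of them. Cells received siRNA against WDR5 (siWDR5), EED (siEED), RNF2 (siRNF2), EED and RNF2 together (siEED+RNF2) or SETD2 (siSETD2), or a non-targeting siRNA (siNTC), whose arrays are labelled as a re-analysis. Whether the siNTC arrays were hybridised and processed with the knockdown arrays is not given in the sources used here, and a difference of that kind cannot be told apart from a change shared by all knockdowns. WDR5 is a core subunit of the MLL/COMPASS complexes that methylate H3K4, EED is needed by PRC2 for H3K27 methylation, RNF2 is a ubiquitin ligase of PRC1 that acts on H2A, and SETD2 trimethylates H3K36. For the conditions described in the study's methods, pools of 4 siRNAs were transfected 24 h and 48 h after seeding and cells were harvested at 96 h, and the dual transfection carried both pools with more transfection reagent than a single one. The siSETD2 arrays appear in the labels and not in those methods. Nothing states that the 2 arrays of a condition came from separate cultures, and the p-values therefore measure the spread of these arrays. NCCIT identity was checked on 8 pluripotent cell markers, among them SOX2, LIN28A, SALL4 and DNMT3B, which lay between 9.51 and 12.84 on the log2 scale in all arrays, while fibroblast, blood and endoderm markers lay between 4.07 and 6.34. Of the neural markers, PAX6 lay between 4.25 and 4.71 and MAP2 between 7.45 and 8.98. The siRNA targets EED, WDR5 and SETD2 were lower in their own knockdowns, with log2 fold changes of -1.29 for EED in siEED, -1.61 for EED in siEED+RNF2, -1.21 for WDR5 in siWDR5 and -1.75 for SETD2 in siSETD2. EED was also called lower in siRNF2 (-0.66, adjusted p = 5.4e-05 with limma), and it read -0.54 in siWDR5 and -0.42 in siSETD2, which were not called. Outside its own knockdown SETD2 lay between -0.51 (siEED+RNF2) and -0.06 (siWDR5). WDR5 lay between 0.31 (siEED) and 0.56 (siEED+RNF2) outside its own, and these values were not called either. For siRNF2, the level of its own target was not analysed here.

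KRAB zinc finger proteins bind DNA through arrays of C2H2 zinc fingers and use their KRAB domain to recruit TRIM28 (KAP1), which in turn brings the H3K9 methyltransferase SETDB1 and silences chromatin. Many of them bind transposable elements, and the genes of 19p12 expanded by tandem duplication during primate evolution. ZNF91 silences SVA retrotransposons and ZNF93 silences a group of L1 elements. The bodies of zinc finger genes are unusual in carrying H3K9me3 together with H3K36me3, the product of SETD2, and the chromatin remodeler ATRX binds there. Because the members are paralogues with long near-identical stretches, probes can share signal between them, so the value of a single member is uncertain and members are not independent of each other.

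The promoters of most members shared a short word. RefSeq (GRCh38.p14) gave a promoter for 28 of the 36 members, and it gave none for ZNF253, ZNF506, ZNF676, ZNF728, ZNF729, ZNF738, ZNF98 or ZNF99. The 10-base word found in most of them, within the 250 bases before the start, was TCCAATCAGG, which holds CCAAT, the core of the NF-Y motif. It stood in 26 of 28 members (92.9%), all but ZNF493 and ZNF257, and ended 20 to 78 bases before the start (median 48). With both strands searched, the same word was in 9.04% of 188 other ZNF genes of chromosome 19, 7.48% of 214 ZNF genes of other chromosomes and 0.421% of 27305 promoters in all. CCAAT alone was in all 28 members and in 37.0% of all promoters. The word was chosen by searching the members' own promoters, so its share among them is a description. The 8 stretches below are shown because these members span the responses described later. ZNF43, ZNF675, ZNF254 and ZNF91 fell in siEED+RNF2 and not in siSETD2, ZNF486 and ZNF90 fell most in siSETD2, ZNF682 fell in both, and ZNF726 rose in siSETD2. Each is read 5′ to 3′ on the gene's strand, and capitals mark the first copy of the word.
ZNF43: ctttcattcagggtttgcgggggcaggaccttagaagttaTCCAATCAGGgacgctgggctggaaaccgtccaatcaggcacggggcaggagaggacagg
ZNF675: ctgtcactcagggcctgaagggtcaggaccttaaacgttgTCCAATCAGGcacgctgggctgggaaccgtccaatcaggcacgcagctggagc
ZNF254: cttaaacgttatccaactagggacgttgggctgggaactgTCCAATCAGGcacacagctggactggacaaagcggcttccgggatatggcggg
ZNF91: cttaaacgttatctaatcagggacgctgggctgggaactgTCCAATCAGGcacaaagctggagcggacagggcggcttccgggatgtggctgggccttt
ZNF486: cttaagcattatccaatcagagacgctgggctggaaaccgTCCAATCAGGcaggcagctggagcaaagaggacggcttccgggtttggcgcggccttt
ZNF90: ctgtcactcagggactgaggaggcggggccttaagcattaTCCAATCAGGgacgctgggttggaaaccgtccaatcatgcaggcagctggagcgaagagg
ZNF682: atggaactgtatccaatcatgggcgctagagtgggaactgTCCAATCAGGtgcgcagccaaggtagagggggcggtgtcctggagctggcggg
ZNF726: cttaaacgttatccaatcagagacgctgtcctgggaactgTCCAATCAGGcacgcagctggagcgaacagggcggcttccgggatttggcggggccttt
In GRCh38.p14 these lie at chr19:21836211-21836310 (minus strand) for ZNF43, chr19:23687213-23687305 (minus strand) for ZNF675, chr19:24087094-24087186 (plus strand) for ZNF254, chr19:23395472-23395570 (minus strand) for ZNF91, chr19:20167116-20167213 (plus strand) for ZNF486, chr19:20077877-20077976 (plus strand) for ZNF90, chr19:20039506-20039598 (minus strand) for ZNF682 and chr19:23914787-23914885 (plus strand) for ZNF726. The stretches of ZNF675, ZNF91, ZNF486, ZNF90, ZNF682 and ZNF726 are upstream of the annotated gene. Those of ZNF43 and ZNF254 begin 15.8 kb and 53.6 kb inside it, before a transcript start within the gene. The word was present in members that fell, and in ZNF726, ZNF101 and ZNF208, which were not called lower in any comparison. ZNF493 and ZNF257, whose promoters lacked it, were called lower in siEED+RNF2.

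The dual knockdown of EED and RNF2 lowered most of the cluster. A gene was called when limma gave a Benjamini-Hochberg adjusted p under 0.05 over all named genes and the fold change from siNTC was at least 1.5. Of the 33 members, 26 were called lower in siEED+RNF2 and 0 higher, where 6.02% of all named genes were called lower and 5.49% higher. The median log2 fold change of the members was -1.03, and that of all named genes was -0.02. At p under 0.05 before adjustment, whatever the fold, 31 members were lower and 1 was higher, which was ZNF726 (25.3% and 23.7% of all named genes). The median level of the 33 members was 10.25 and 10.08 in the siNTC arrays and 8.99 and 8.97 in the siEED+RNF2 arrays, while it lay from 9.34 to 9.77 in the other 8 arrays.

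Among the most lowered members, ZNF682 was 8.71 and 8.72 in siNTC and 7.13 and 7.23 in siEED+RNF2. The log2 fold change was -1.53 (SE 0.07, n = 2 per condition, adjusted p = 2.1e-08 from limma), which left 34.6% of the control signal. ZNF708 read 9.35 and 9.31 in siNTC against 7.79 and 7.81, a log2 fold change of -1.53 (SE 0.08, adjusted p = 5.9e-08). The arrays of the 2 conditions were far apart for both genes compared with the distance between replicates. ZNF431 read 9.31 and 8.97 in siNTC and 7.69 and 7.76 in siEED+RNF2, a change of -1.41 (SE 0.12). ZNF93, the L1 repressor, went from 10.25 and 10.37 to 8.97 and 8.84, also a change of -1.41 (SE 0.07). ZNF91, the SVA repressor, fell by 1.27 on the log2 scale, so that 41.4% of its signal was left, and ZNF675, which is known as an inhibitor of TRAF6 signalling, fell by 1.28.

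Calls in siEED+RNF2 ran along the whole cluster, from ZNF506 to ZNF254. The 7 members that were not called were ZNF101, ZNF14, ZNF738, ZNF429, ZNF208, ZNF676 and ZNF726, with log2 fold changes from -0.46 to 0.55. ZNF676 lay between 4.22 and 4.58 in all 12 arrays. All 26 calls were kept when any 1 array was left out, under each other scaling of the arrays and in each other model tried. ZNF726 then passed as higher without siEED+RNF2 replicate 1 (log2 fold change 0.63) or siNTC replicate 1 (0.72). In bulk RNA, fewer cells expressing a gene and less RNA per cell cannot be told apart.

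**Figure D1:**
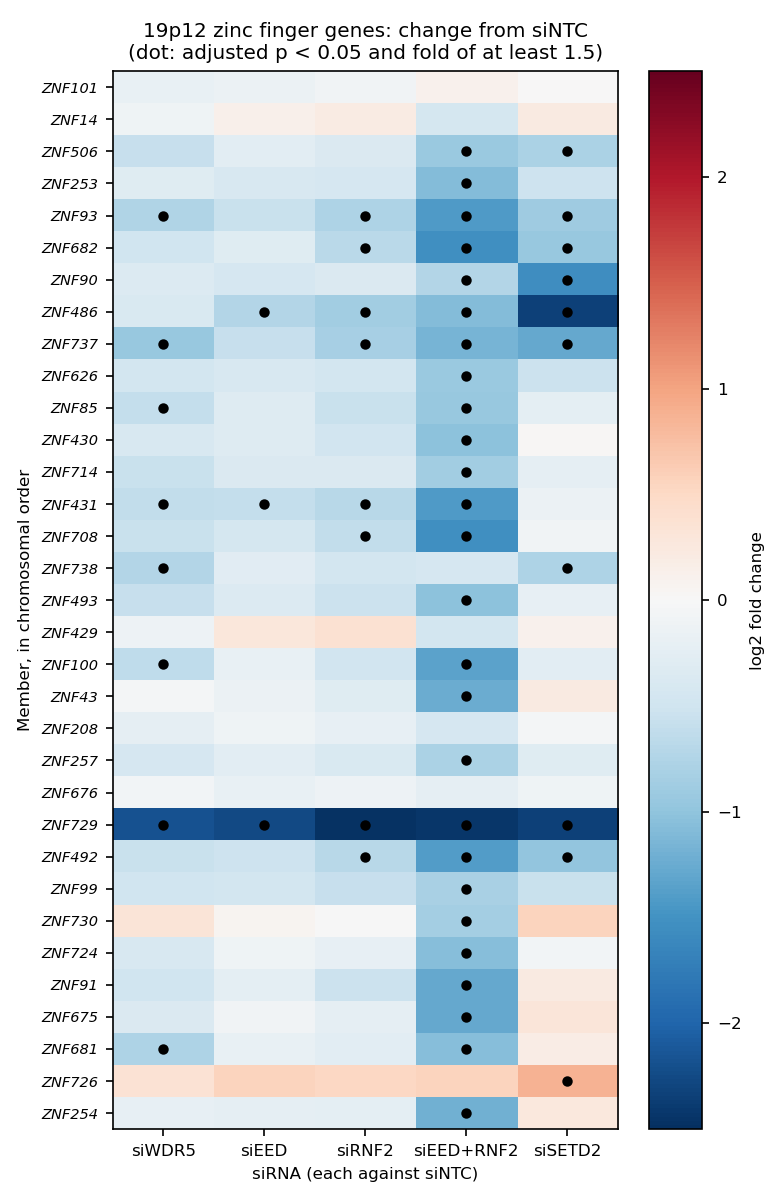
Log2 fold change of the 33 measured members (rows, in chromosomal order) in each of the 5 knockdowns (columns) against siNTC, with blue for lower and red for higher and a dot for members called. The siEED+RNF2 column holds 26 dots, siSETD2 10, siWDR5 and siRNF2 8 each and siEED 3, and ZNF729 is dark blue throughout.

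In the single knockdowns of EED and RNF2 fewer members were called. In siEED, 3 members were called lower (ZNF729, ZNF486 and ZNF431) and 0 higher, against 2.63% and 3.74% of all named genes. The median log2 fold change of the members was -0.28, and 29 of 33 were below 0. In siRNF2, 8 members were called lower (ZNF729, ZNF486, ZNF737, ZNF93, ZNF431, ZNF492, ZNF682 and ZNF708) and 0 higher, against 3.81% and 6.37% of all named genes, with a median of -0.42. At p under 0.05 before adjustment, whatever the fold, limma gave 24 members lower and 2 higher in siEED (24.4% and 20% of all named genes), and 26 lower and 2 higher in siRNF2 (27.1% and 23.6%). These counts depended on the scaling, and with the arrays centred on the median of named genes 6 members were called lower in siEED and 15 in siRNF2, where 3.96% and 6.8% of all named genes were.

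ZNF486 was 11.52 and 11.21 in siNTC, whereas it read 10.63 and 10.64 in siEED, and siRNF2 had 10.46 and 10.51. Its log2 fold change was -0.73 in siEED (SE 0.11, adjusted p = 2.5e-04) and -0.88 in siRNF2 (SE 0.11, adjusted p = 4e-05). ZNF431 read 8.47 and 8.63 in siEED and 8.36 and 8.53 in siRNF2, below its siNTC values of 9.31 and 8.97, with changes of -0.59 and -0.70. The siNTC arrays of ZNF431 were 0.34 log2 units apart. ZNF737 read 10.76 and 10.36 in siRNF2 against 11.43 and 11.35, a change of -0.83, and ZNF93 read 9.55 in both siRNF2 arrays, a change of -0.76. Without siNTC replicate 1, ZNF486 was at -0.58 in siEED and ZNF431 at -0.42 in siEED and -0.53 in siRNF2, below the fold threshold. ZNF431 also missed it in siEED without siEED replicate 1 (-0.51), and ZNF708 in siRNF2 without siRNF2 replicate 2 (-0.58).

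Compared directly with the single knockdowns, without the control arrays, the dual knockdown was again lower. Against siEED, 20 members were called lower and 0 higher, where 2.75% and 0.157% of all named genes were called. Against siRNF2, 16 members were lower and 0 higher, where 3.03% and 0.239% of all named genes were called. The medians of the members were -0.68 against siEED and -0.57 against siRNF2, and those of all named genes were 0.03 and 0.02. At p under 0.05 before adjustment, whatever the fold, 1 member was higher with limma in each, where 14.2% and 13.6% of all named genes were. Both comparisons use the same siEED+RNF2 arrays. Both siEED+RNF2 arrays lay below the other 10 arrays in 25 of the 33 members, as they did in 8.02% of all named genes. Called lower than siNTC, siEED and siRNF2 alike were 14 members (1.63% of all named genes), namely ZNF253, ZNF93, ZNF682, ZNF431, ZNF708, ZNF100, ZNF43, ZNF492, ZNF730, ZNF724, ZNF91, ZNF675, ZNF681 and ZNF254. The dual transfection held both siRNA pools and more reagent, and the effect of that amount and of the combined depletion cannot be told apart.

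For ZNF675 the siEED arrays read 11.45 and 11.35, the siRNF2 arrays 11.29 and 11.24, and the siEED+RNF2 arrays 10.24 and 10.18. The dual knockdown was thus lower by -1.20 than siEED (SE 0.12, adjusted p = 2.7e-05) and by -1.05 than siRNF2 (SE 0.12, adjusted p = 6.7e-05). Both single knockdowns of this gene stayed close to siNTC, at 11.56 and 11.43, with log2 fold changes that were not called. ZNF43 showed the same order, with siEED at 11.00 and 10.91, siRNF2 at 10.83 and 10.76, and siEED+RNF2 at 9.82 and 9.90, and differences of -1.10 and -0.94. ZNF254 had siEED at 10.02 and 10.07, siRNF2 at 10.06 and 10.01, and siEED+RNF2 at 9.15 and 9.01, with differences of -0.97 and -0.95. In all of these genes every single knockdown array was above every dual array, by at least 1.00 log2 units for ZNF675 and 0.86 for ZNF43 and ZNF254.

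ZNF682 and ZNF708 were among the members already called lower in siRNF2. ZNF682 read 8.50 and 8.33 in siEED and 8.08 and 8.01 in siRNF2, and the dual arrays at 7.13 and 7.23 were lower by -1.23 and -0.87. ZNF708 read 8.91 and 8.88 in siEED and 8.76 and 8.67 in siRNF2, with differences of -1.09 and -0.91. ZNF100 was 9.60 and 9.59 in siEED and 9.28 and 9.33 in siRNF2, against 8.50 and 8.38 in siEED+RNF2, with differences of -1.15 and -0.86. At the other end, the dual knockdown differed from siEED by -0.02 in ZNF726 (SE 0.11), -0.03 in ZNF676 (SE 0.07) and -0.13 in ZNF738 (SE 0.07). ZNF101 was the member that was highest relative to siEED, by 0.26 (SE 0.07, adjusted p = 0.023 with limma), below the fold threshold, and it read 0.20 above siRNF2 (SE 0.07, adjusted p = 0.057). The call of ZNF737 against siEED (-0.60, SE 0.17, the lowest value called) was lost without any 1 of the 4 compared arrays, with values from -0.47 to -0.73. Calls near the threshold were also lost against siEED for ZNF506 without siEED replicate 1 (-0.58), and for ZNF85 (-0.55) and ZNF430 (-0.58) without siEED+RNF2 replicate 2. Against siRNF2, ZNF14 was lost without siRNF2 replicate 1 or siEED+RNF2 replicate 2 (-0.54 each), and ZNF93 without the latter (-0.58).

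**Figure D2:**
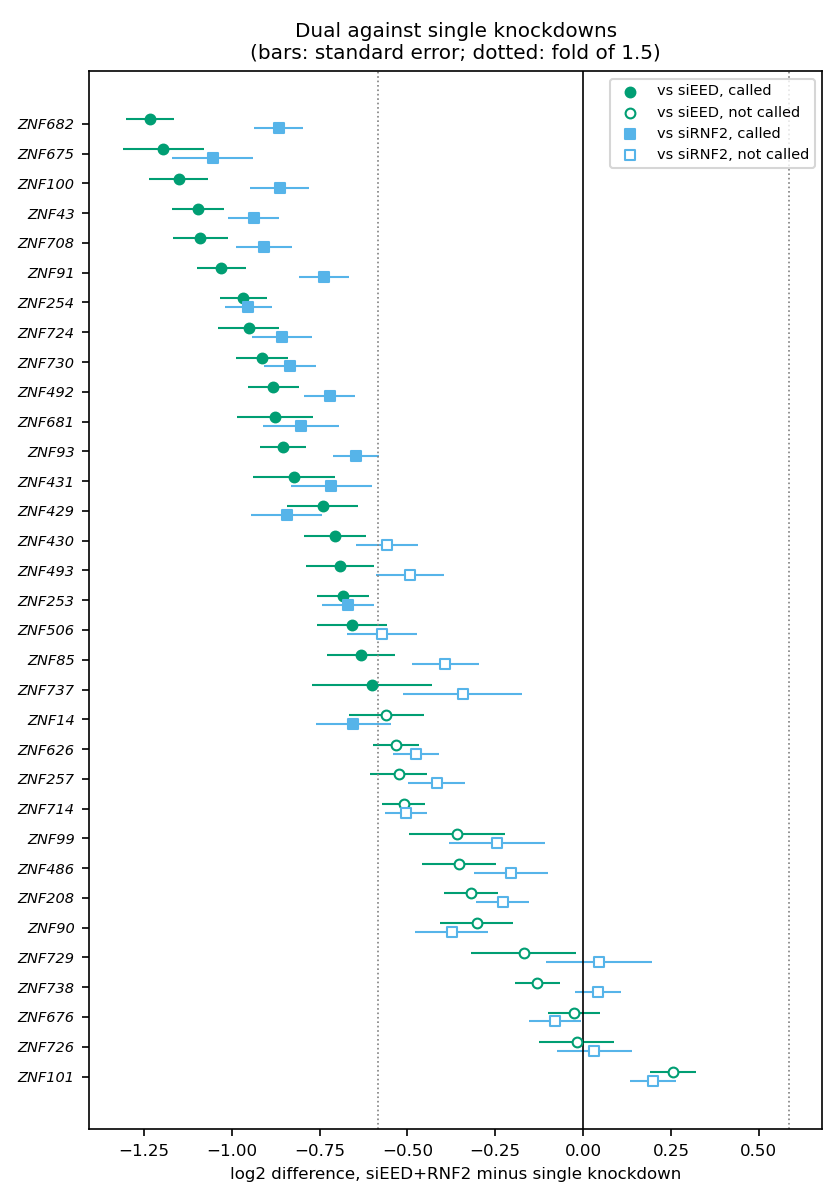
Log2 difference of siEED+RNF2 from siEED (circles) and from siRNF2 (squares) for the 33 members, sorted by the first, with standard errors as bars and filled symbols for members called. Differences run from -1.23 (ZNF682 against siEED) to 0.26 (ZNF101 against siEED), and 20 circles and 16 squares are filled.

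Gene length moved with these comparisons. Over 18392 named genes with a length, the Spearman correlation of gene length with the log2 difference was -0.19 against siEED and -0.22 against siRNF2, and over the 33 members it was -0.29 in both. The members had a median gene length of 35.1 kb (15.4 to 96.5 kb), and all named genes had one of 24.5 kb. These correlations run across genes of the same arrays and are descriptions, and the part of length in the members' decrease was not tested.

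In the knockdown of SETD2 some of the members were lower than in siNTC. In siSETD2, 9 members were called lower, where 3.18% of all named genes were. The median of the members was -0.20, and 22 of the 33 were below 0. At p under 0.05 before adjustment, whatever the fold, limma gave 16 lower and 6 higher (21% and 20.3% of all named genes). The 1 member called higher is 3.03% of the members, close to the 2.64% of all named genes. All 10 calls were kept when any 1 array was left out. ZNF486 was 8.97 and 9.08 in siSETD2 against siNTC values of 11.52 and 11.21, a log2 fold change of -2.34 (SE 0.11, adjusted p = 5.6e-08) that left 19.8% of the control signal. ZNF90 was 9.07 and 8.99 against 10.46 and 10.72, a change of -1.56 (SE 0.10, adjusted p = 1.1e-06). For both genes the siSETD2 arrays lay below all 10 other arrays, and the share of all named genes with that order was not counted here.

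ZNF737 read 9.91 and 10.30 in siSETD2, a change of -1.29 (SE 0.17), and ZNF492 read 8.32 and 8.16 where siNTC had 9.18 and 9.27, a change of -0.98 (SE 0.07). ZNF682 (-0.95), ZNF93 (-0.90), ZNF506 (-0.79) and ZNF738 (-0.76) were the other members called lower beside ZNF729. ZNF726 rose, from 7.35 and 7.01 in siNTC to 8.01 and 8.07 in siSETD2, a log2 fold change of 0.86 (SE 0.11, adjusted p = 1e-04). ZNF726 was above siNTC in all 10 knockdown arrays, and the log2 fold changes that were not called were 0.55 in siEED+RNF2, 0.51 in siRNF2, 0.56 in siEED and 0.36 in siWDR5. It was called in siEED without siEED replicate 2 (0.67) or siNTC replicate 1 (0.73), and in siRNF2 without siNTC replicate 1 (0.68).

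Along the chromosome, the members lowered in siSETD2 lay mostly at the start of the series. From ZNF101 to ZNF737, 6 of 9 measured members were called lower and the median was -0.90. From ZNF626 to ZNF729, 2 of 15 were called lower and the median was -0.20. From ZNF492 to ZNF254, 1 of 9 was lower and 1 higher, with a median of 0.23. In siEED+RNF2 the same stretches held 7 of 9, 11 of 15 and 8 of 9 members called lower, with medians of -1.08, -0.96 and -1.07. The stretches were drawn after the values were seen, and no test was made between them. Duplicate clusters did not always move alike, since the dimmer cluster of ZNF257 was at -1.25 in siSETD2 and the brighter one at -0.30. In siEED+RNF2 the dimmer cluster of ZNF626 was at -0.44, short of the fold threshold, and the brighter one at -0.93. The dimmer clusters of ZNF493 (-1.49) and ZNF257 (-1.01) fell further than the brighter ones (-1.03 and -0.79).

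**Figure D3:**
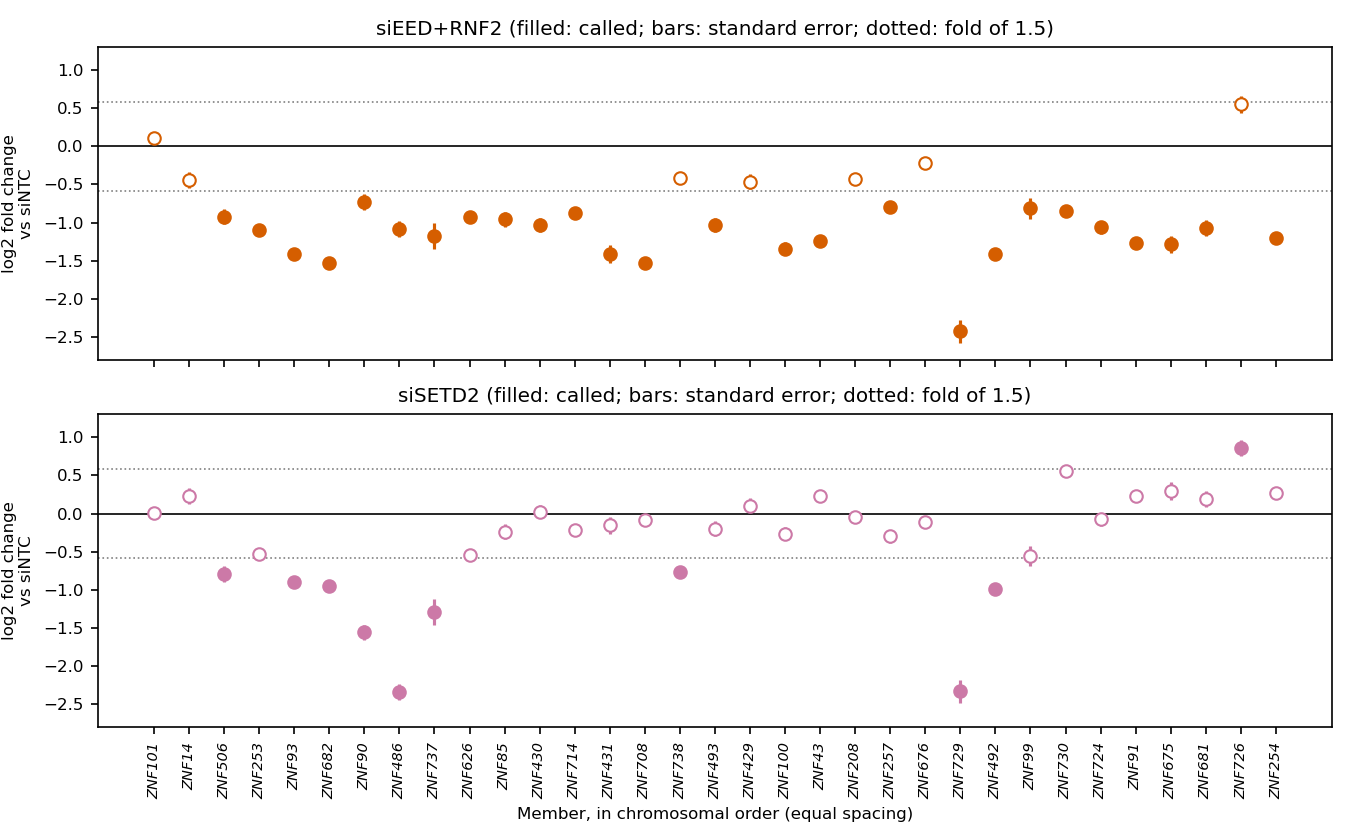
Log2 fold change from siNTC of the 33 members in chromosomal order (equal spacing) in siEED+RNF2 (upper panel) and siSETD2 (lower panel), with standard errors as bars and filled points for members called. In the upper panel 26 points are filled along the whole order, and in the lower panel 6 of the 10 filled points lie among the first 9 members.

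A direct comparison of siEED+RNF2 with siSETD2, added after the values were seen, gave 15 members lower and 2 higher in siEED+RNF2, where 5.54% and 4.89% of all named genes were called. ZNF675 was 11.86 and 11.72 in siSETD2, a difference of -1.58 (SE 0.12, adjusted p = 7.1e-07). ZNF91 read 10.77 and 10.72 in siSETD2 and 9.32 and 9.17 in siEED+RNF2, a difference of -1.50 (SE 0.07, adjusted p = 2.9e-08). ZNF254 read 10.54 and 10.57 in siSETD2, ZNF43 read 11.28 and 11.36, and ZNF708 read 9.34 and 9.14, with differences of -1.47, -1.46 and -1.44. In the opposite direction, ZNF486 (10.38 and 10.18 in siEED+RNF2) was higher by 1.26 and ZNF90 (9.80 and 9.92) by 0.83. In 10 members siEED+RNF2 was called lower than all of siNTC, siEED, siRNF2 and siSETD2 (1.46% of all named genes), namely ZNF431, ZNF708, ZNF100, ZNF43, ZNF730, ZNF724, ZNF91, ZNF675, ZNF681 and ZNF254. The call of ZNF14 was lost without siEED+RNF2 replicate 2 (-0.56).

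In siWDR5, 8 members were called lower and 0 higher, where 3.22% and 2.8% of all named genes were called, and the median of the members was -0.46. At p under 0.05 before adjustment, whatever the fold, 27 were lower and 2 higher with limma (24.2% and 19.1% of all named genes). ZNF737 was 10.22 and 10.68 in siWDR5 against siNTC values of 11.43 and 11.35, a log2 fold change of -0.94 (SE 0.17, adjusted p = 0.0012). ZNF681 read 8.20 and 8.09 in siWDR5, below its siNTC values of 8.99 and 8.84, a change of -0.77 (SE 0.11). The siWDR5 arrays of ZNF737 were 0.46 log2 units apart.

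ZNF738 was lower in siWDR5 (10.91 and 10.84) and in siSETD2 (10.85 in both arrays) than in siNTC (11.67 and 11.55), by -0.74 and -0.76. It was not called in siEED, siRNF2 or siEED+RNF2, where the 6 arrays read 11.13 to 11.33. ZNF93 was 9.55 and 9.57 in siWDR5, a change of -0.75. ZNF100 (-0.64), ZNF431 (-0.61) and ZNF85 (-0.59) were called with values near the threshold and missed it without siNTC replicate 1 (-0.56, -0.44 and -0.49). ZNF431 (-0.54) and ZNF100 (-0.53) also missed it without siWDR5 replicate 1, and ZNF85 (-0.46) without siWDR5 replicate 2.

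ZNF729, the member with the largest change from siNTC in 4 of the 5 knockdowns, read 7.60 and 8.14 in the siNTC arrays and between 5.27 and 5.76 in all 10 knockdown arrays. The log2 fold change of ZNF729 was -2.33 in siSETD2, -2.42 in siEED+RNF2, -2.47 in siRNF2, -2.26 in siEED and -2.18 in siWDR5 (SE 0.15 each), and 18.0% of the control signal was left in siRNF2, the lowest share. The knockdown arrays of ZNF729 read within the range of the fibroblast, blood and endoderm markers (4.07 to 6.34). So low a level can limit both this share and any difference between knockdowns, which was not tested. ZNF729 was the only member called lower in all 5 knockdowns, as were 0.467% of all named genes. Between knockdowns its differences were not called, with siEED+RNF2 differing by -0.17 from siEED (SE 0.15, adjusted p = 0.52) and by 0.04 from siRNF2 (SE 0.15, adjusted p = 0.89). The 5 values share the same 2 siNTC arrays, and those arrays were 0.54 log2 units apart for this gene. A difference in processing between siNTC and the knockdown arrays cannot be told apart from the knockdowns here.

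**Figure D4:**
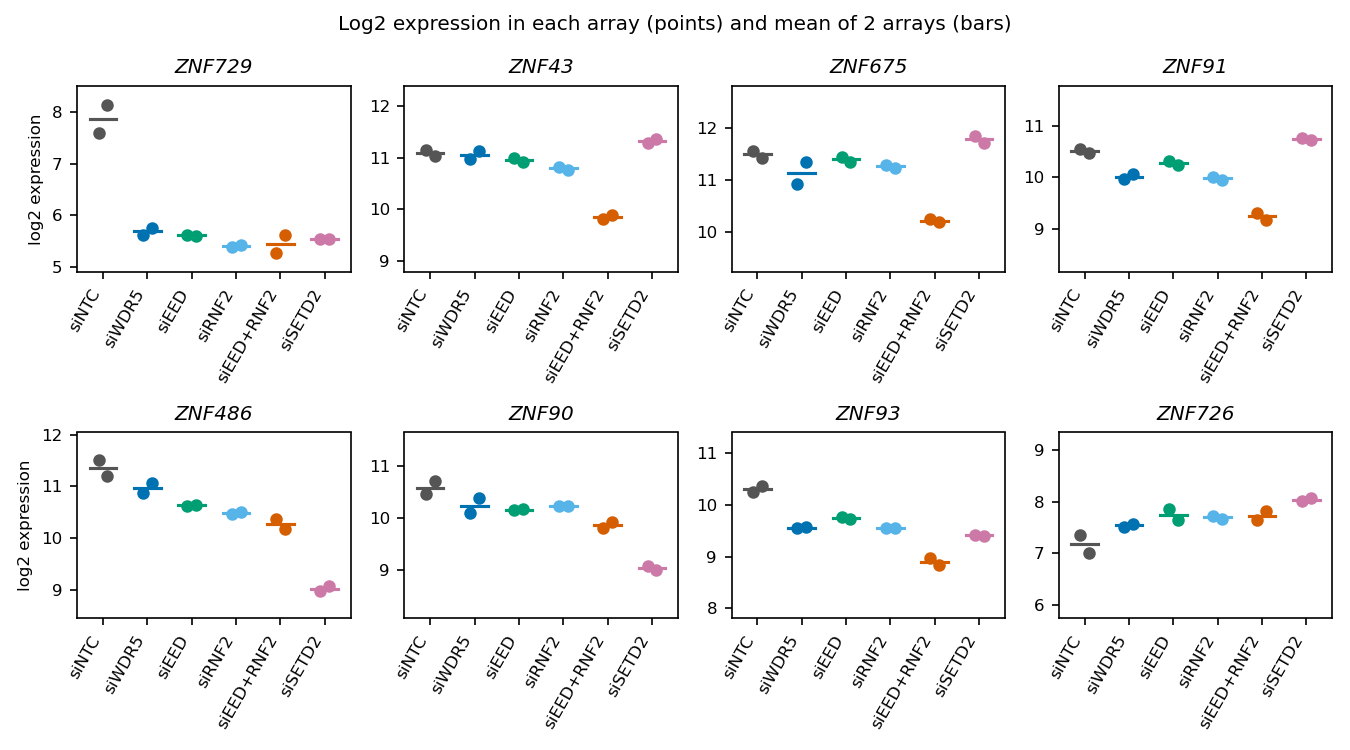
Log2 expression of 8 members in each of the 12 arrays (points) by condition, with a bar for the mean of the 2 arrays; every panel spans 3.6 log2 units. ZNF729 separates siNTC from all knockdowns, ZNF43, ZNF675 and ZNF91 are lowest in siEED+RNF2, and ZNF486 and ZNF90 are lowest in siSETD2.

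Because all 5 knockdowns were compared with the same siNTC arrays, each was also set against the average of those other knockdowns with no siRNA target in common. Against that reference, siWDR5, siEED and siRNF2 had 0 members called lower, where 2.01%, 0.407% and 0.69% of all named genes were, and 1 was higher (ZNF486 in siWDR5, 0.87, the siSETD2 arrays being part of the mean), where 0.847%, 0.782% and 2.46% were. At p under 0.05 before adjustment, whatever the fold, limma gave 5, 2 and 8 members lower (20.3%, 13.3% and 17.9% of all named genes) and 10, 9 and 5 higher (17.5%, 12.7% and 20.8%) in the same order. In siEED+RNF2, 15 members were still called lower against the mean of siWDR5 and siSETD2, where 3.87% of all named genes were called lower. In siSETD2, ZNF486 (-1.57) and ZNF90 (-1.09) were lower and 8 members were higher, where 3.34% and 2.57% of all named genes were, and this reference contains the siEED+RNF2 arrays. Smaller decreases against this reference had an adjusted p under 0.05 in limma without reaching the fold threshold, among them those of ZNF681 (-0.43) and ZNF738 (-0.26) in siWDR5, ZNF730 (-0.22) in siEED, and ZNF91 (-0.36) and ZNF43 (-0.31) in siRNF2.

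Other zinc finger genes were also called lower, in smaller shares than the members. In siEED+RNF2, 36 of 200 other ZNF genes of chromosome 19 (18.0%) and 44 of 247 ZNF genes of other chromosomes (17.8%) were called lower. Their medians were -0.20 and -0.10, while 78.8% of the 33 members and 6.02% of all named genes were called lower. The lists also differed in array level. The median level was 9.58 for the members, 7.23 and 7.52 for those other ZNF lists and 6.9 for all named genes. The part of level in these shares was not tested. Against siEED the shares were 9.5%, 13.0% and 60.6%, and against siRNF2 8.0%, 15.8% and 48.5%, where 2.75% and 3.03% of all named genes were lower. In siSETD2, 7.0% of the other ZNF genes of chromosome 19 were lower, beside 27.3% of the members and 3.18% of all named genes. Outside the members, 28 measured ZNF genes had the promoter word shown above, and 12 of them (42.9%) were called lower in siEED+RNF2. Among 25 measured members with the word, 20 were called lower (80.0%). So were ZNF493 (-1.03) and ZNF257 (-0.79), the members whose promoters lacked it. The 28 genes without a ZNF symbol that had the word included 2 called lower (7.14%), near the 6.02% of all named genes. The 3 measured genes without a ZNF symbol between the first and the last member (CCNYL6, GOLGA2P9 and RPSA2) were not called in any comparison. At an unadjusted p under 0.05 CCNYL6 was lower and GOLGA2P9 higher in all 5 knockdowns with limma, which share the same 2 siNTC arrays. CCNYL6 read 4.60 and 5.04 in siNTC and 4.45 to 4.60 in the knockdowns, and GOLGA2P9 read 4.85 and 4.49 against 4.93 to 5.45. Both were dim, below the array medians of named genes (6.83 to 6.97).

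**Figure D5:**
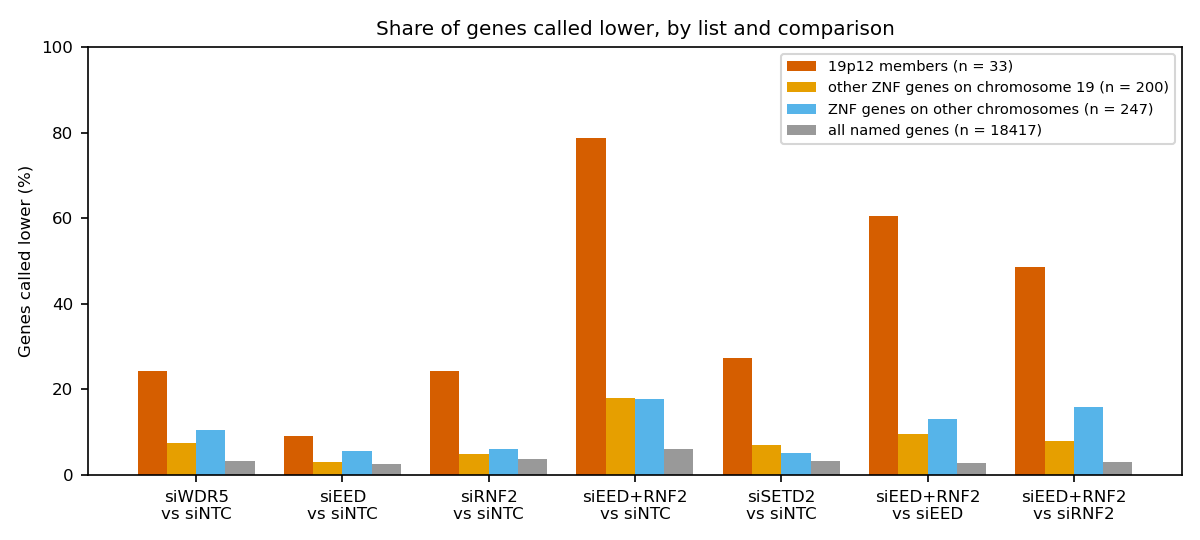
Share of genes called lower (bars, in percent) in 7 comparisons for the 33 members, 200 other ZNF genes of chromosome 19, 247 ZNF genes of other chromosomes and all 18417 named genes. The members have the highest share in each comparison, reaching 78.8% in siEED+RNF2 against siNTC, where the other ZNF groups are at 18.0% and 17.8%.

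Some of the partners through which KRAB zinc finger proteins act were called. Of 22 measured genes of this machinery, 0 were called in siWDR5 and siSETD2, 2 were higher in siEED, 3 lower and 1 higher in siRNF2, and 2 lower and 1 higher in siEED+RNF2. As shares of the list, 9.09% were higher in siEED, where 3.74% of all named genes were. The lower ones made up 13.6% in siRNF2, against 3.81% of all named genes, and 9.09% in siEED+RNF2, against 6.02%. The 1 higher gene made up 4.55% in each of these, against 6.37% and 5.49% of all named genes. In siEED+RNF2 against siEED and against siRNF2, 2 of the 22 were lower each time (9.09%). There 2.75% and 3.03% of all named genes were lower. At p under 0.05 before adjustment, whatever the fold, limma gave 3 lower and 6 higher in siWDR5 and 1 and 6 in siSETD2. It gave 10 and 4 in siEED+RNF2, 9 and 4 in siRNF2, and 8 and 4 in siEED. In the same order, 24.2%, 21%, 25.3%, 27.1% and 24.4% of all named genes were lower. Those higher were 19.1%, 20.3%, 23.7%, 23.6% and 20%. TRIM28, the KRAB corepressor, and SETDB1 were not called in any comparison. ATRX, the remodeler that binds zinc finger genes, read 8.19 and 8.08 in siNTC, with siEED at 7.95 and 7.93, siRNF2 at 7.50 and 7.26, and siEED+RNF2 at 6.57 and 6.88. Its log2 fold change was -0.76 in siRNF2 (SE 0.10) and -1.41 in siEED+RNF2 (SE 0.10), and siEED+RNF2 was lower than siEED by -1.21 and than siRNF2 by -0.65. ATF7IP, a partner of SETDB1, fell in siRNF2 (-0.66) and siEED+RNF2 (-0.73), and CBX1, an HP1 protein, fell in siRNF2 (-0.61). CHD3, a NuRD remodeler, rose in siEED+RNF2 (1.13), siRNF2 (0.94) and siEED (0.84), and MPHOSPH8 of the HUSH complex rose in siEED (0.70). In siEED+RNF2 MPHOSPH8 was at -0.05 from siNTC, and it was called lower than in siEED by -0.75 and than in siRNF2 by -0.63. ATRX and MPHOSPH8 were thus lower in the dual than in the single knockdowns, as many members were, and their part in the decrease of the members was not tested.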

How the data were processed

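NCCIT cells transfected with siRNA were profiled on 12 Affymetrix arrays (250 ng RNA each). The authors deposited log2 intensity values for 33297 transcript clusters, background-corrected and normalized between arrays before deposit. GCRMA and Partek are named in the notes of the submitters on processing, without settings. Conditions and replicate numbers came from the labels, and 0 value columns were left out.

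Gene names were taken from the platform's annotation and brought up to date by gene number with RefSeq (GRCh38.p14). Clusters with several genes were not named, and the brightest cluster stood for a gene, giving 18417 genes. With limma 3.58.1 (R 4.3.3), 1 linear model of all 12 arrays was fitted, holding a term for each condition (6 residual degrees of freedom), with empirical Bayes moderation, and p-values were adjusted over all named genes by Benjamini-Hochberg. The number of arrays limits the precision. Values differ between probes. Levels of different genes were therefore set beside each other only for cell type markers, dim genes and medians of gene lists. Promoters came from RefSeq. The model was tested on simulated data. Figures were made with Python 3.11.15 and matplotlib 3.10.9.

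The members and gene lists were chosen with earlier results of these data known. Any member could be named. Values of every array are given for ZNF729 and for up to 5 called members with the largest change in each direction and comparison, and outside the list the siRNA targets, called genes of the KRAB machinery list, neighbours and markers could be named. The comparison of siEED+RNF2 with siSETD2 and the centring on all transcript clusters were added after the values were seen. Protein sequences were not analysed here. The alternatives were other samples in the fit, a replicate block, other variance moderation, other scaling, the removal of dim genes, averaging over clusters, other thresholds, another reference and leaving out each array.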

Additional observations from a re-analysis of the deposited data

Results flagged for a closer look

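A difference between knockdowns, tested in the same limma fit, stood out for 9 members because it exceeded 1 on the log2 scale. The siEED+RNF2 arrays were lower than the mean of siWDR5 and siSETD2, the knockdowns that share no siRNA target with it, by -1.33 for ZNF43 (adjusted p = 4.6e-08), -1.28 for ZNF730, -1.26 for ZNF675, -1.23 for ZNF254, -1.21 for ZNF708, -1.14 for ZNF91 and -1.03 for ZNF431. The siSETD2 arrays were lower than the mean of the other 4 knockdowns by -1.57 for ZNF486 (adjusted p = 6.7e-08) and by -1.09 for ZNF90 (adjusted p = 1e-06). These differences do not use the siNTC arrays, although their p-values rest on the spread of all 12 arrays. The mean of the other knockdowns in the second set contains the siEED+RNF2 arrays.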

How the results depend on the processing

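With the replicate number as a block the counts of members called lower were 9 in siSETD2, 26 in siEED+RNF2, 8 each in siRNF2 and siWDR5, 3 in siEED, and 20, 16 and 15 in siEED+RNF2 against siEED, siRNF2 and siSETD2, the same as without it, and so were those called higher. Over the 15 pairs of conditions, deviations of same-numbered arrays correlated at -0.107 to 0.161, with 1 above 0.1 (siRNF2 with siEED+RNF2). No clear pairing by number was seen, and with 2 arrays per condition this cannot exclude one. Without a fold threshold the members called lower were 27 in siWDR5, 20 in siEED, 23 in siRNF2, 15 in siSETD2 and 24 against siSETD2, and those called higher were 2 in siWDR5, siEED and siRNF2, 5 in siSETD2 and 1 in siEED+RNF2 and against siEED, where 15.8% to 22.1% of all named genes were lower and 5.02% to 20.9% higher. At a fold of at least 2 the lower counts were 18 in siEED+RNF2, 4 in siSETD2 and 6 against siEED. Of all named genes 1.78%, 0.733% and 0.532% were lower there. In siWDR5, siEED, siRNF2 and against siRNF2 the lower count was 1 each, where 0.445%, 0.348%, 0.624% and 0.348% of all named genes were. The higher counts were 0 in siSETD2 and 1 against siSETD2, where 0.462% and 1.24% of all named genes were. Centring on the median of named genes, which shifts siRNF2 by 0.13, gave 6 lower in siEED and 15 in siRNF2, and centring on all clusters (chosen after seeing the data) 1 higher in siEED and siEED+RNF2. With the other knockdowns as reference the lower counts were 0 in siWDR5, siEED and siRNF2, 2 in siSETD2 and 15 in siEED+RNF2, and the higher counts 1 in siWDR5 and 8 in siSETD2. Against that reference 18 of the 33 members had the opposite direction in siWDR5, 13 in siSETD2, 4 in siEED+RNF2, 9 in siRNF2 and 24 in siEED. Among members called against either reference, it turned in siWDR5 for ZNF93 (0.15), ZNF486 (0.87), ZNF737 (0.03), ZNF431 (0.10) and ZNF729 (0.19), in siEED for ZNF486 (0.47) and ZNF729 (0.07), for ZNF486 (0.28), ZNF737 (0.10) and ZNF492 (0.00) in siRNF2, for ZNF90 (0.22) and ZNF486 (0.28) in siEED+RNF2, and in siSETD2 for ZNF431 (0.67), ZNF708 (0.70) and ZNF729 (0.00), values of 0.00 being above 0 before rounding, and the cause was not tested. Leaving out 1 array gave 9 to 10 lower in siSETD2, 26 in siEED+RNF2, 7 to 11 in siRNF2 and in siWDR5, 2 to 4 in siEED, 17 to 20 against siEED, 15 to 17 against siRNF2 and 15 to 18 against siSETD2, while 1 to 2 were higher in siSETD2 and 0 to 1 in each of siEED, siRNF2 and siEED+RNF2. Another background correction was not run.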
